A study of Sus scrofa with 30 samples.

Results

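The livers of control pigs were compared between the end of a feed restriction phase (T2) and the end of the following 5-week period (T3). Controls were fed ad libitum throughout and were never restricted, so the comparison follows unrestricted young pigs as they grew. The arrays were chosen by their labels: 12 of the 30 arrays of the series, 6 at T2 and 6 at T3. At each time point 3 control pigs had a normal birth weight (NK, 1.4 to 1.6 kg) and 3 had a low birth weight (UK, 0.8 to 1.1 kg).

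All pigs were female, low and normal birth weight piglets were picked within litters, and 3 pigs per group were chosen at random, each giving liver RNA to 1 array. The labels link no pig of T2 to a pig of T3. The other arrays come from pigs sampled before the restriction (T1, 6 arrays) and from restricted pigs (NR and UR, 6 arrays at T2 and 6 at T3), which had received 50% of the ad libitum intake for 3 weeks and were then refed ad libitum. The control diet also changed, from 13.6 MJ of metabolizable energy per kg at T2 to 14.1 between T2 and T3. At T1 the diet held 16.3 MJ per kg. Age and diet therefore cannot be told apart in either interval. T1 is day 76 in the sample labels and 75 in the series text. T2 is day 97 in the sample labels and 98 in the series text. T3 is day 103 in the sample labels but 131 in the series text, and the time points are therefore called T2 and T3 here.

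The liver turns absorbed nutrients into glucose, fat and plasma proteins, clears hormones and drugs, and makes bile. Its demands shift as a young pig leaves the phase of rapid lean growth and starts to lay down fat. Piglets of low birth weight, as a rule, grew slowly in the womb, and their liver metabolism is studied because it may stay different later in life. In whole liver, fewer cells of a type and less RNA per cell cannot be told apart.

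Each array carried 60900 probes of 60 bases for pig transcripts. The scanner files give the probes numbers but no gene names. Rows of the deposited table, which carry human Ensembl protein identifiers (ENSP), could for 19206 of the 19864 rows be tied to runs of consecutively numbered probes, usually 3, because these rows follow the median of their run. Genes are therefore not named here, each probe is given with the protein identifier of its run, and the liver identity of the samples was not set against marker genes. Levels are the log2 of the processed signal minus the 75th percentile of the same array, so a level of 0 is that percentile. No level is compared between probes.

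The probes below carry the largest changes in each direction among those that passed a naming rule. Larger called changes that failed the rule are given further below. They are the 4 that rose most and the 4 that fell most among probes that were called (limma, adjusted p under 0.05), were well above background on all 12 control arrays and had T2 and T3 arrays that did not overlap. Lack of overlap in controls was thus a condition of naming and not a result, and picking the largest changes favours sizes that are too large. The other probes of the same protein identifiers are shown with them. The rising probes and their companions belong to 3 identifiers.
PigEx0008616 (ENSP00000341762): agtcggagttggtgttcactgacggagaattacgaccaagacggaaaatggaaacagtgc
PigEx0008617 (ENSP00000341762): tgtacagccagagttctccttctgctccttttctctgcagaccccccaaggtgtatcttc
PigEx0008618 (ENSP00000341762): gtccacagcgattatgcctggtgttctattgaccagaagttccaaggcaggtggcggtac
PigEx0049320 (ENSP00000409535): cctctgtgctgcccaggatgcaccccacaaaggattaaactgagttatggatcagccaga
PigEx0049321 (ENSP00000409535): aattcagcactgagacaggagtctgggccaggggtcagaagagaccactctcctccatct
PigEx0049322 (ENSP00000409535): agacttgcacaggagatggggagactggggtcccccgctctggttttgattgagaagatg
PigEx0000410 (ENSP00000363081): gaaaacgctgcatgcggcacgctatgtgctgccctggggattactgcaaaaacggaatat
PigEx0000411 (ENSP00000363081): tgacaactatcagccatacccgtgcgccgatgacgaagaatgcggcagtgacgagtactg
PigEx0000412 (ENSP00000363081): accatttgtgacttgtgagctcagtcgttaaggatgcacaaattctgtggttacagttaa

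The falling probes and their companions belong to 2 identifiers. PigEx0010604 and PigEx0010605 overlap by 53 bases, shown in capitals, and so do not measure the transcript independently. No other probe of the array shared 20 consecutive bases with any of these 15 probes.
PigEx0017655 (ENSP00000223366): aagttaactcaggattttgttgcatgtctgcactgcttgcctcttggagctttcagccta
PigEx0017656 (ENSP00000223366): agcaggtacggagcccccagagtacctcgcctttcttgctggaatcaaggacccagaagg
PigEx0017657 (ENSP00000223366): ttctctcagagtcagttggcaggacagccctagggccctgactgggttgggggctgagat
PigEx0010604 (ENSP00000306328): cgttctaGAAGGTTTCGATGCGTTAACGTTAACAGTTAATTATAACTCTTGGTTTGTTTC
PigEx0010605 (ENSP00000306328): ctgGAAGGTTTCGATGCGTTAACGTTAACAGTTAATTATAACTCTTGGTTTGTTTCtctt
PigEx0010606 (ENSP00000306328): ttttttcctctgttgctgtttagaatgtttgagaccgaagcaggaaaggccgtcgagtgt

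Over the whole array the liver changed on a small part of the probes between T2 and T3 in control pigs. Of 41061 probes tested, 2287 were called (5.57%), 994 of them higher at T3 (2.42%) and 1293 lower (3.15%). Most changes were modest: the median was 1.92-fold for called probes that rose and 1.78-fold for those that fell. At least 2-fold changes were seen for 438 called probes that rose and 400 that fell. At least 4-fold ones were seen for 40 and 53 of the called probes, and at least 8-fold ones for 7 and 9. Of all tested probes, called or not, 1676 (4.08%) changed at least 2-fold in either direction. The T2 and T3 arrays did not overlap for 425 of the called probes that rose and 664 of those that fell, against 1660 (4.04%) of all probes tested, 1.80% upwards and 2.24% downwards. Of the falling probes 1168 of 1293 (90.3%) were well above background on all 12 arrays, and of the rising ones 733 of 994 (73.7%), against 76.7% of all tested probes.

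**Figure D1:**
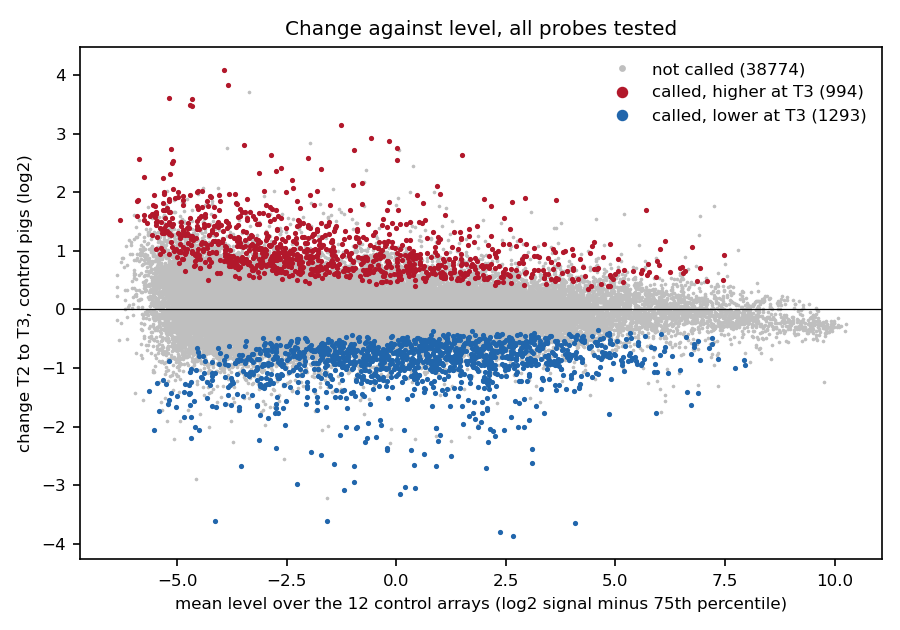
Change from T2 to T3 in control pigs (log2, vertical axis) against the mean level over the 12 control arrays (log2 signal minus the 75th percentile, horizontal axis), 1 point per probe tested. Called probes that rose (994) are red, called probes that fell (1293) blue and the others grey, and the largest changes reach beyond 3 on the log2 scale in both directions; levels of different probes are not comparable as amounts of RNA.

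The identifier ENSP00000341762 showed the largest rise among the named probes. At T2, PigEx0008616 lay at -1.28, -0.54 and -3.38 in the NK pigs and at -1.05, -3.19 and -2.71 in the UK pigs. At T3 it lay at 2.09, 0.86 and 1.33 in the NK pigs and at 0.62, 0.17 and 0.30 in the UK pigs. Every T3 pig was above every T2 pig, as the naming rule required. The T2 pigs spread more widely than the T3 pigs, with means of -2.03 ± 1.21 and 0.90 ± 0.72 (SD, n = 6). The probe rose 7.58-fold (log2 change 2.92, SE 0.47, adjusted p = 0.00106). PigEx0008618 ran from -3.67 to -0.89 (median -2.27) at T2 and from -0.26 to 1.39 (median 0.28) at T3, a rise of 6.56-fold (adjusted p = 0.00135). The companion PigEx0008617 rose by a smaller log2 amount, 1.21 (adjusted p = 0.0152), and its T2 and T3 arrays overlapped. With normexp background correction the change of PigEx0008618 was 1.99 (adjusted p = 0.000733).

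This identifier also differed before T2. At T1, PigEx0008616 had a mean level of 0.84 ± 0.40 (SD, n = 6), close to its T3 mean, and the change from T1 to T2 was -2.87 (adjusted p = 0.0101). PigEx0008618 changed by -2.79 over the same interval (adjusted p = 0.0101). Of all probes tested, 94 were called between T1 and T2 in the control comparison (0.229%). The T2 control arrays enter both comparisons, so the fall before T2 and the rise after it are not independent. The T1 arrays all lay on slides 1 and 2 in scan 1, while T2 control arrays also lay on other slides and in scan 2. Diet, slide and scan therefore cannot be told apart from age in the T1 to T2 changes given here and below.

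The identifier ENSP00000363081 rose from a narrow T2 range. At T2 PigEx0000412 lay at -2.44, -3.50 and -3.40 in the NK pigs and at -3.57, -3.04 and -3.82 in the UK pigs. At T3 it lay at -0.28, -1.64 and -0.62 in the NK pigs and at -0.29, -0.58 and -0.84 in the UK pigs. The means were -3.30 ± 0.49 and -0.71 ± 0.50 (SD, n = 6), and the probe rose 6-fold (log2 change 2.59, SE 0.51, adjusted p = 0.00446). Both companions rose as well, PigEx0000410 by 2.0 (adjusted p = 0.00143) and PigEx0000411 by 2.80 (adjusted p = 0.000904) on the log2 scale. PigEx0000411 was well above background on 3 of the 6 arrays at T2 and on all 6 at T3. With normexp background correction the change of PigEx0000412 was 1.73 (adjusted p = 0.00321). At T1 the level of PigEx0000412 ranged from -4.08 to -0.45, wider than at either later time point, and its change from T1 to T2 was -1.14 (adjusted p = 0.444).

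The identifier ENSP00000409535 rose least steadily. PigEx0049320 lay at -2.41, 1.08 and 0.04 in the NK pigs and at 0.23, 1.34 and 0.75 in the UK pigs at T2, and between 2.26 and 3.51 (median 2.66) at T3. NK replicate 1 stood far below the other T2 pigs. The probe rose 6.25-fold (log2 change 2.64, SE 0.72, adjusted p = 0.0319), PigEx0049321 by 2.55 (adjusted p = 0.0441), and PigEx0049322 had a change of 2.44 that missed the threshold (adjusted p = 0.0519). The call of PigEx0049320 was lost in 12 of 34 alternatives, in some of them with a smaller change: 1.84 with slide as a block (adjusted p = 0.156) and 1.30 with scan as a block (0.302). With no filter on dim probes the change was the same and the adjusted p 0.0503. With only the arrays of scan 2 the change was 2.2 and the adjusted p 0.155. The call was also lost, at changes of 2.15 to 2.76, without each of NK_T2 replicate 1 (0.0806), NK_T2 replicate 3 (0.0579), UK_T2 replicate 1 (0.0727), UK_T2 replicate 3 (0.0605), UK_T3 replicate 1 (0.0515), UK_T3 replicate 2 (0.0675) and UK_T3 replicate 3 (0.0562). At T1 PigEx0049320 averaged 2.20 ± 0.54 (SD, n = 6), against 0.17 at T2 and 2.82 at T3. Its change from T1 to T2 was -2.03 and was not called (adjusted p = 0.276).

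Among the named probes the largest fall was that of ENSP00000223366. PigEx0017657 lay at -1.15, 2.01 and -0.49 in the NK pigs and at -1.48, 2.09 and 0.33 in the UK pigs at T2. At T3 it lay at -2.56, -3.79 and -3.94 in the NK pigs and at -3.05, -4.39 and -2.59 in the UK pigs. The T2 pigs were thus widely scattered, with replicate 2 highest and replicate 1 lowest in both birth weights, and the T3 pigs were uniformly low. Both arrays numbered 1 at T2 came from slide 1, and the part of the slide in this scatter was not tested. The means were 0.22 ± 1.55 and -3.39 ± 0.76 (SD, n = 6), a fall of 12.2-fold (log2 change -3.61, SE 0.64, adjusted p = 0.00226). With normexp background correction the change was -2.53 (adjusted p = 0.00321).

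The 3 probes of ENSP00000223366 moved together. PigEx0017656 fell 8.49-fold (log2 change -3.09, adjusted p = 0.00416) and PigEx0017655 changed by -2.95 (adjusted p = 0.00605), and T2 and T3 arrays did not overlap for any of them. At T1 PigEx0017657 averaged -2.47 ± 1.10 (SD, n = 6), which lies between its T2 and T3 means. Its change from T1 to T2 was 2.69, with an adjusted p of 0.0753 that missed the threshold.

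The identifier ENSP00000306328 fell from a tight T2 level. PigEx0010604 lay at 1.75, 1.27 and 2.44 in the NK pigs and at 1.47, 1.80 and 1.25 in the UK pigs at T2. At T3 it lay at -1.10, -0.10 and -1.39 in the NK pigs and at -1.53, -1.36 and -3.42 in the UK pigs. The groups did not overlap, as the naming rule required, and UK replicate 3 was the lowest of the T3 pigs. The means were 1.66 ± 0.45 and -1.48 ± 1.08 (SD, n = 6), a fall of 8.85-fold (log2 change -3.15, SE 0.41, adjusted p = 0.000245). PigEx0010605, which shares most of its bases with PigEx0010604, fell 8.23-fold (adjusted p = 0.00062). PigEx0010606, the probe of the set with another sequence, changed by -3.04 on the log2 scale (adjusted p = 0.000299). At T1 PigEx0010604 averaged 0.65 ± 0.45 (SD, n = 6).

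**Figure D2:**
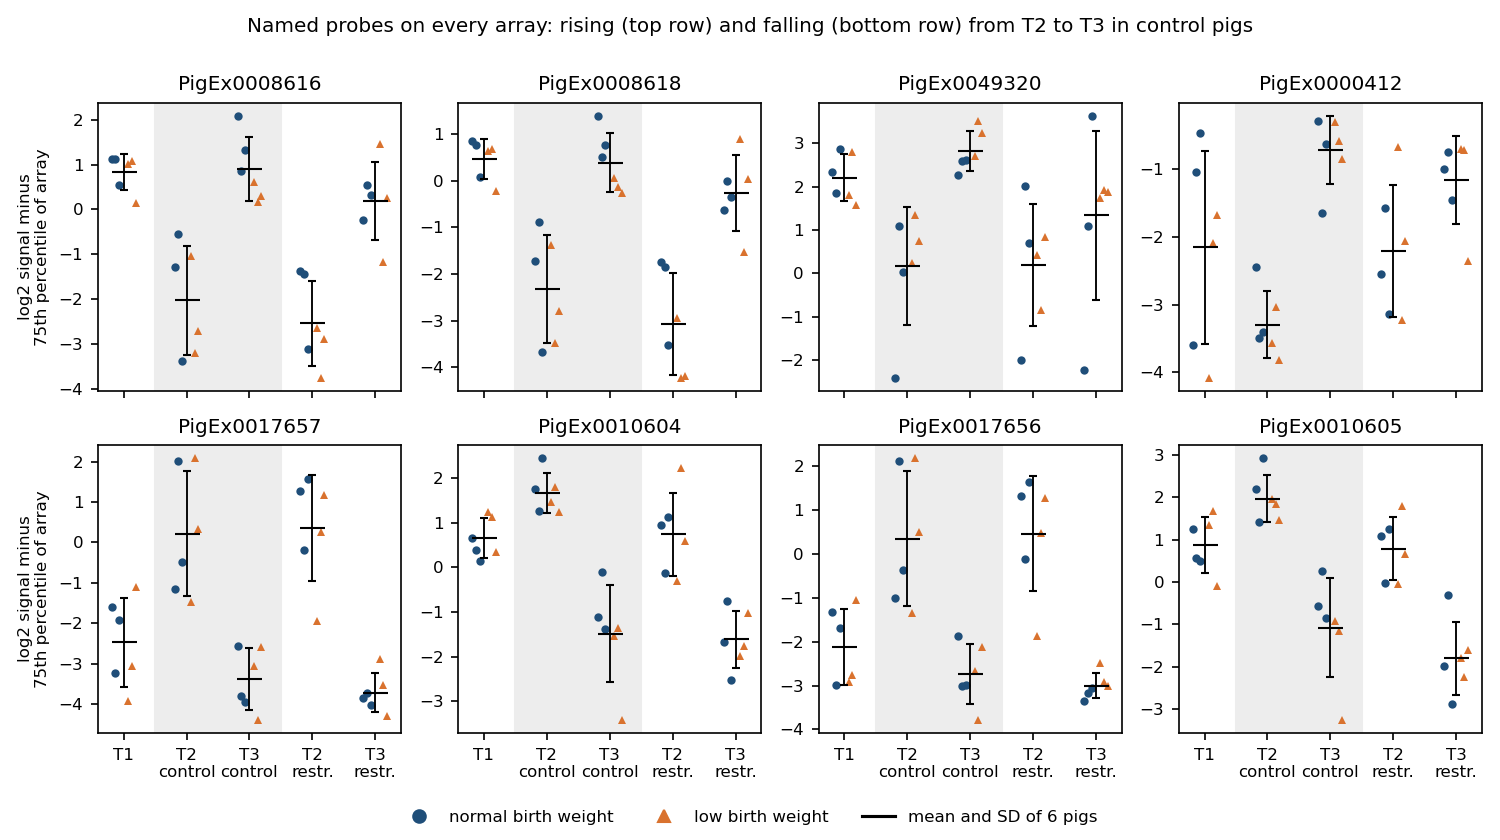
Levels of the 8 named probes (log2 signal minus the 75th percentile of the array, vertical axes) in all 30 pigs by time point and feeding, with circles for normal and triangles for low birth weight; bars are the mean and SD of 6 pigs, and the shaded columns are the control pigs at T2 and T3. In the shaded columns T2 and T3 pigs do not overlap, as the naming rule required. For PigEx0049320 and PigEx0000412 the restricted pigs of the 2 time points do overlap.

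The 4 rising and 4 falling probes were not the largest changes of all. A change of at least 8-fold was called for 16 probes of 7 protein identifiers, of which 4 were among the named ones. PigEx0010606 came next in the order of falling probes, and the other 11 were dim on some control array (7) or overlapped between T2 and T3 (7), some of them both. They were singled out after their values were seen. The probe with the largest change of each of their 5 identifiers is shown because the naming rule left out these called changes of at least 8-fold.
PigEx0026918 (ENSP00000351541): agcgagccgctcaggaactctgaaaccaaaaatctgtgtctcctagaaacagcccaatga
PigEx0035007 (ENSP00000380497): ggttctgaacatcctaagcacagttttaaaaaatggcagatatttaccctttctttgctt
PigEx0027487 (ENSP00000285381): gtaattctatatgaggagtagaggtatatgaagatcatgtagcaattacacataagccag
PigEx0030095 (ENSP00000222304): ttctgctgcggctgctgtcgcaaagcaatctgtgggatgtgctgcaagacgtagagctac
PigEx0046551 (ENSP00000398105): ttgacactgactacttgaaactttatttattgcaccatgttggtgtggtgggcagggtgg

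The identifier ENSP00000351541 went from mostly not well above background at T2 to mostly well above it at T3. PigEx0026918 was not well above background on any of the 6 control arrays at T2 (-7.09 to -5.17, median -5.85), and was so on all 6 at T3 (-2.71 to -1.25, median -1.84). Since the T2 signal gives only a bound, the T3 mean of -1.89 was set, per T2 array, against the lowest signal well above background or the probe's own signal, whichever was higher. On that basis the probe was at least 8.98-fold higher at T3 (measured T2 mean -5.97, adjusted p = 0.000245). At T1 PigEx0026918 ranged from -6.77 to -2.81 with a mean of -4.28, above the T2 mean. Only U_T1 replicate 1 was not well above background at T1. PigEx0026920 was at least 3.23-fold higher at T3 (measured means -6.98 and -3.37). It was well above background on 5 of the 6 arrays at T3, but not on NK replicate 3, at -5.28. Only the UK_T3 group, where it is high, let it pass the filter, so its call adds no separate support. PigEx0026919 was well above background on 1 of the 6 arrays at T2 (at -4.47) and on all 6 at T3 (-2.82 to -1.40). The T2 and T3 arrays did not overlap for any of these 3 probes, and each was called in all 33 alternatives. These sizes hold for the processed signal: with normexp background correction, which adds an offset of 50 to every signal, the log2 changes were 1.54 for PigEx0026918, 1.30 for PigEx0026919 and 0.93 for PigEx0026920, and those of the first and the last lie below the bounds above.

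For ENSP00000380497 the T3 pigs disagreed among themselves. PigEx0035007 lay at -2.47, -6.31 and -0.81 in the NK pigs and at -1.80, -4.77 and -1.05 in the UK pigs at T3. At T2 it lay at -6.99, -4.41 and -7.03 in the NK pigs and at -5.67, -7.47 and -7.19 in the UK pigs. In both birth weights replicate 2 was the lowest at T3, the groups overlapped, and only 1 T2 array was well above background. Both T3 arrays numbered 2 lay on slide 4 in scan 2, and both numbered 3, the highest, on slide 6 in scan 4. UK_T3 replicate 1, at -1.80, was also in scan 2. The part of slide and scan in this scatter was not tested. The 3 probes of this identifier were called (adjusted p = 0.0136 to 0.0409), but the size of their change is not well measured, since 1, 1 and 0 of the 6 T2 arrays were well above background. PigEx0035008 was at least 4.28-fold higher at T3 (measured means -6.40 and -2.92, well above background on 4 of 6 arrays at T3), and with normexp background correction its log2 change was 1.14 (adjusted p = 0.0587). PigEx0035007 lost its call with only the arrays of scan 2 (adjusted p = 0.295), with scan as a block (0.0791) and in a fit of only the 12 arrays (0.0695). The calls of PigEx0035006 and PigEx0035008 were lost in 14 and 15 of 33 alternatives. At T1 PigEx0035007 averaged -4.02 ± 0.93 (SD, n = 6), between its T2 mean of -6.46 and its T3 mean of -2.87. Only N_T1 replicate 2 was not well above background at T1.

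Among these identifiers, ENSP00000285381 was the one with changes of opposite sign in control and restricted pigs, though none of its probes was called in restricted pigs. In controls PigEx0027487 lay at -4.05, -4.52 and -1.99 (NK) and -3.12, -1.96 and -1.38 (UK) at T2, and at -2.19, 0.59 and -1.06 (NK) and 1.79, 1.46 and 1.27 (UK) at T3. Every T3 pig but NK replicate 1 was above every T2 pig. The probe changed by 3.15 in controls (adjusted p = 0.0107) and by -1.08 in restricted pigs (adjusted p = 0.548). The difference between these changes was -4.23 (SE 1.0) with an unadjusted p of 0.000313 in the limma fit and an adjusted p of 1, so it did not pass the threshold. PigEx0027485 and PigEx0027486 changed by 2.76 and 2.88 in controls (adjusted p = 0.0208 and 0.0246) and by -0.99 and -1.06 in restricted pigs. The restricted values rest largely on UR_T3 replicate 3, at -5.30 for PigEx0027487 and not well above background there. Without it the restricted changes were -0.34 for PigEx0027485, -0.32 for PigEx0027486 and -0.36 for PigEx0027487.

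Of the falling probes, those of ENSP00000222304 had the largest called change and a wide spread between pigs. PigEx0030095 lay at 2.01, 4.89 and 6.19 in the NK pigs and at 1.49, 6.43 and 6.56 in the UK pigs at T2, and at 0.58, -0.11, 0.93 (NK) and 1.05, -0.82, 2.74 (UK) at T3. The arrays numbered 1 at T2, both on slide 1, were the lowest of T2 and lay within the T3 range. The probe fell 14.6-fold (log2 change -3.87, SE 1.02, adjusted p = 0.027), and PigEx0030094 and PigEx0030096 fell 12.5-fold and 13.9-fold. With only the arrays of scan 2 the change of PigEx0030095 was -6.05, and with slide as a block it was -4.93 (adjusted p = 0.021). Its call was lost without NK_T2 replicate 2 (0.0589), NK_T2 replicate 3 (0.0884), UK_T2 replicate 2 (0.0774), UK_T2 replicate 3 (0.074), UK_T3 replicate 1 (0.0537) or UK_T3 replicate 2 (0.0746), and in a fit of only the 12 arrays (0.0632). At T1 the same probe ranged from -0.59 to 5.24.

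The identifier ENSP00000398105 went the other way round from ENSP00000351541. PigEx0046551 was well above background on all 6 control arrays at T2 (-3.06 to -1.51) and on none at T3 (-7.07 to -5.20), and was at least 6.36-fold lower at T3 (measured means -2.32 and -5.93, adjusted p = 0.00274). The companions PigEx0046552 and PigEx0046553 fell by less, 3.61-fold and 3.40-fold (adjusted p = 0.0459 and 0.0136), without overlap of T2 and T3. With slide as a block the calls of all 3 probes were lost (adjusted p = 0.0692, 0.0874 and 0.104). With normexp background correction PigEx0046551 changed by -1.17, a smaller fall than the bound, and was not called (adjusted p = 0.067).

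**Figure D3:**
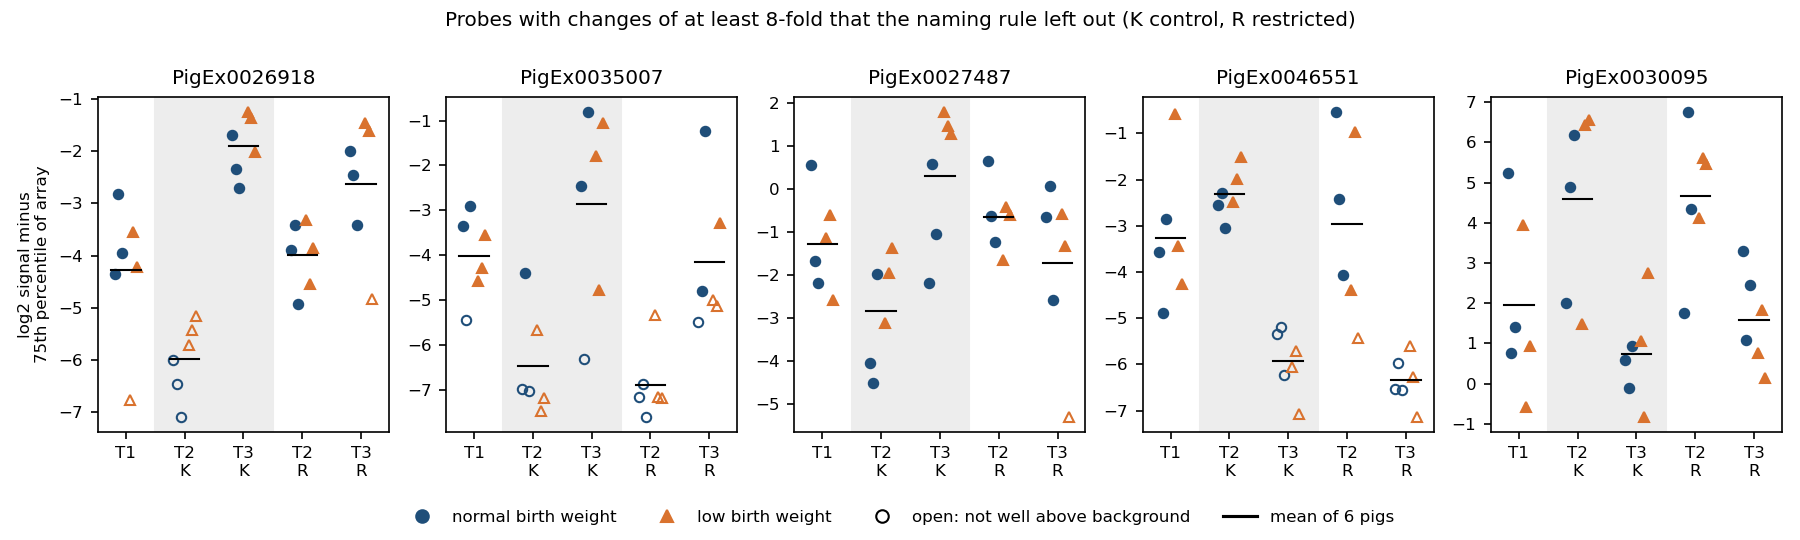
Levels (log2 signal minus the 75th percentile of the array, vertical axes) of the probe with the largest change from each of 5 protein identifiers outside the named ones, in all 30 pigs; K is control, R is restricted, open symbols are not well above background and lines are means of 6 pigs. PigEx0026918 and PigEx0046551 separate T2 from T3 controls fully, while PigEx0035007, PigEx0027487 and PigEx0030095 overlap.

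Probes of the same protein identifier gave a view of how far single calls were shared. Of the tested probes, 38115 belonged to an identifier, and 1362 of 15818 identifiers had a called probe (8.61%). No identifier had called probes in both directions. Among the 9692 identifiers with 3 tested probes, 1089 had a call: 554 on 1 probe, 276 on 2 and 259 on all 3. All 3 probes were called higher for 74 identifiers and called lower for 185, with at least a 2-fold change on every probe for 33 and 56 of them. The 3 probes had the same sign in 991 of the 1089 identifiers with a call (91.0%), and in 6411 of all 9692 (66.1%). Of the probes of these 9692 identifiers that had a called companion, 1329 of 2713 were called (49.0%), against 5.57% of all tested probes. Companions can share bases, as PigEx0010604 and PigEx0010605 do, so these calls are not all independent.

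Fitting the median of the probes of each identifier gave 811 calls among 12850 identifiers (6.31%), 357 higher at T3 and 454 lower. On that scale ENSP00000341762 changed by 2.71 (adjusted p = 0.000699), ENSP00000409535 by 2.44 (adjusted p = 0.0445) and ENSP00000363081 by 2.12 (adjusted p = 0.00152). The falling identifiers changed by -3.19 for ENSP00000223366 (adjusted p = 0.00244) and -3.08 for ENSP00000306328 (adjusted p = 0.000174).

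The called probes had a base composition close to that of the array. The mean GC content was 47.9% for probes that rose, 47.5% for those that fell and 49.2% for all tested, with a median of 45% in each. The letters AATAAA, the core of the common polyadenylation signal, occurred in 6.84% of the rising and 8.04% of the falling probes, against 5.56% of all tested probes. Its reverse complement TTTATT occurred in 2.41%, 3.48% and 2.79% of them. These shares are descriptions and were not tested.

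Within each birth weight far fewer probes were called, since each comparison sets 3 pigs against 3. In NK pigs 204 probes were called (0.497%), 116 higher at T3 and 88 lower. In UK pigs 225 were called (0.548%), 61 higher and 164 lower. The 2 lists shared 42 probes, 20.6% of the NK list and 18.7% of the UK list, all in the same direction. When the changes of NK and UK pigs were tested against each other, no probe was called (0.00%, limma), with 776 probes at an unadjusted p under 0.05 (1.89%) and a median SE of 0.484 on the log2 scale. A p that misses the threshold at this precision does not show that the birth weights changed alike.

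These counts depended on single pigs. The NK count was 1 without NK_T2 replicate 3 and 1 without NK_T3 replicate 1, 37 without NK_T2 replicate 2, 576 without NK_T3 replicate 2, 426 without NK_T3 replicate 3 and 334 without NR_T3 replicate 3. The UK count was 34, 7 and 24 without UK_T2 replicates 1, 2 and 3, and 11, 29 and 105 without UK_T3 replicates 1, 2 and 3. The count over both birth weights was 1054 without NK_T2 replicate 3, 1519 without UK_T2 replicate 1, 1364 without UK_T2 replicate 2 and 1384 without UK_T3 replicate 1. The share of NK calls that were higher at T3 was 56.9%, but 47.3% after quantile normalization, 37.7% with scan as a block and 19.4% with only the arrays of scan 2. The share of UK calls that were higher was 27.1%, but 38.7% with slide and 37.7% with scan as a block. The larger share of rising calls in NK pigs was thus present in some settings and not in others.

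For the named probes both birth weights changed in the same direction, which was certain in advance because naming required T2 and T3 arrays not to overlap. PigEx0008616 changed by 3.16 in NK and 2.68 in UK pigs, PigEx0000412 by 2.26 and 2.91, PigEx0017657 by -3.55 and -3.66, PigEx0010604 by -2.68 and -3.61, and PigEx0010605 by -2.55 and -3.53. The difference between the birth weights was -0.48 ± 0.94 (SE) for PigEx0008616, 0.64 ± 1.01 for PigEx0000412, -0.11 ± 1.28 for PigEx0017657 and -0.92 ± 0.82 for PigEx0010604, each with an adjusted p of 1. These errors leave room for sizeable differences. Over the called probes the median change was 1.03 in NK and 0.81 in UK pigs for those that rose, and -0.79 and -0.86 for those that fell. The calls were made on the average of the 2 birth weights, so agreement of their signs (994 of 994 and 1291 of 1293, against 68.4% of all probes) follows in part from that choice.

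**Figure D4:**
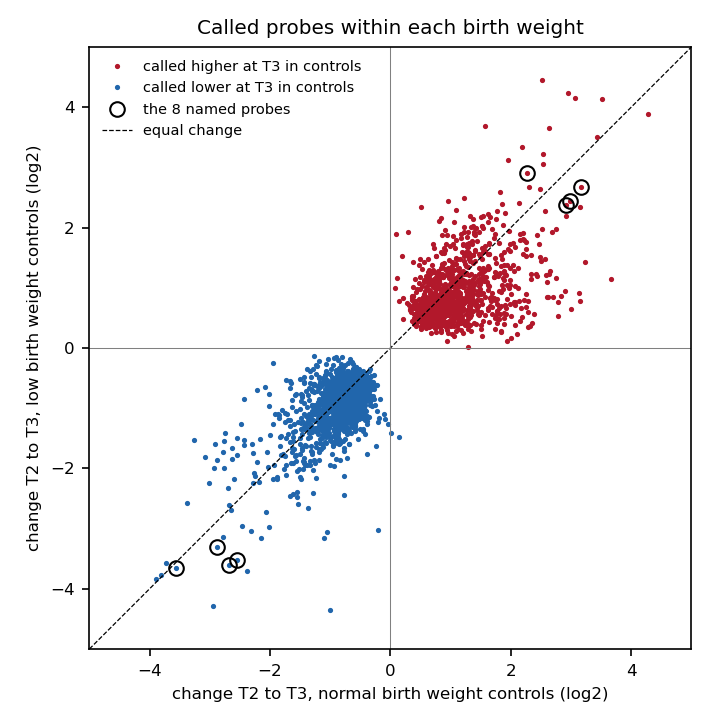
Change from T2 to T3 (log2) in low birth weight controls (vertical axis) against normal birth weight controls (horizontal axis) for the 2287 called probes, red higher and blue lower at T3, with the 8 named probes circled and the dashed line at equal change. Of the called probes, 994 of 994 rising and 1291 of 1293 falling ones have the same sign in both birth weights.

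The restricted pigs give the same interval in 12 other arrays, which share some slides and scans with the controls. From T2 to T3 those pigs also passed from restriction to refeeding. In them 403 probes were called (0.981%), 160 higher at T3 (0.390%) and 243 lower (0.592%). Of these, 263 were also called in controls, 65.3% of the restricted list and 11.5% of the control list, and all 263 moved in the same direction (108 higher, 155 lower). The control probes that rose had the same sign in restricted pigs in 949 of 994 cases (95.5%) and those that fell in 1239 of 1293 (95.8%), against 73.4% of all probes. Their median change was 0.52 in restricted pigs against 0.94 in controls for the rising probes, and -0.43 against -0.83 for the falling ones. The T2 and T3 arrays of restricted pigs were apart in the same direction for 114 of the rising (11.5%) and 239 of the falling probes (18.5%). Over all probes they were apart in the direction of the control change for 892 (2.17%). The probes were chosen on the control values and not on the restricted ones, so these medians do not compare like with like. A test of restricted against control changes called no probe (0.00%, limma), with 1356 at an unadjusted p under 0.05 (3.30%).

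The named identifiers that fell in controls, ENSP00000223366 and ENSP00000306328, also fell in restricted pigs. PigEx0017657 ranged from -1.95 to 1.57 at T2 and from -4.30 to -2.87 at T3 in restricted pigs, a change of -4.07 (adjusted p = 0.00327). PigEx0010604 changed by -2.36 and PigEx0010605 by -2.59 (adjusted p = 0.0068 for both). Of ENSP00000341762, PigEx0008616 rose by 2.73 (adjusted p = 0.0068) and PigEx0008618 by 2.82 (adjusted p = 0.00395), with no overlap of T2 and T3, while PigEx0008617 changed by 0.92 (adjusted p = 0.125). By contrast PigEx0000412 changed by 1.04 (adjusted p = 0.363) and PigEx0049320 by 1.15 (adjusted p = 0.523), and both overlapped. The difference from controls was -1.54 for PigEx0000412 and -1.50 for PigEx0049320, with adjusted p-values of 1, so a weaker rise in restricted pigs was not shown.

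The probes outside the named ones differed in how far they followed the controls. PigEx0026918 was well above background on all 6 restricted arrays at T2 (-4.92 to -3.32), where no control array was, and on 5 of 6 at T3 (-4.84 to -1.45). It changed by 1.36 in restricted pigs (adjusted p = 0.227), and since the control change is a bound, no size is given for the difference. PigEx0030095 changed by -3.08 in restricted pigs (adjusted p = 0.15) and was not called there. PigEx0046551 was well above background on 5 restricted arrays at T2 and on none at T3, so it was lower at T3 (adjusted p = 0.0149) by an amount these arrays do not measure.

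**Figure D5:**
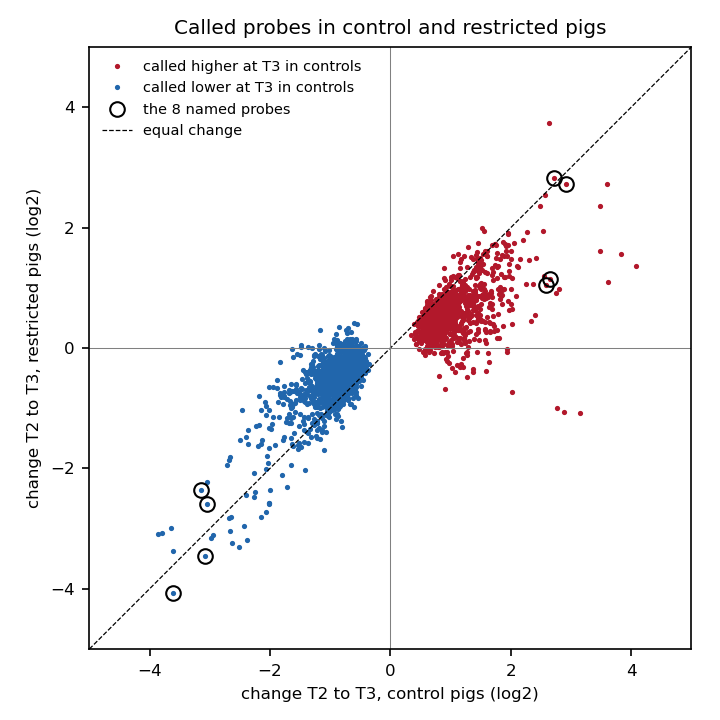
Change from T2 to T3 (log2) in restricted pigs (vertical axis) against control pigs (horizontal axis) for the probes called in controls, red higher and blue lower at T3, with the 8 named probes circled and the dashed line at equal change. Most probes have the same sign in both (949 of 994 and 1239 of 1293), and the 3 red points near -1 on the vertical axis are the probes of ENSP00000285381.

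The count in restricted pigs also depended on single pigs. It was 121 without NR_T2 replicate 1, 199 without NR_T2 replicate 3, 188 without UR_T2 replicate 2, 150 without UR_T2 replicate 3, 127 without NR_T3 replicate 3, 251 without UR_T3 replicate 2 and 230 without UR_T3 replicate 3.

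The arrays of the 2 time points were not balanced over slides and scans, given here as numbers. The 12 control arrays lay on slides 1 to 6 and in scans 1 to 4, and slide 4 alone held both time points. On that slide, in the same scan, UK_T3 replicate 2 minus UK_T2 replicate 3 had the direction of the call for 958 of 994 rising and 1270 of 1292 falling probes, against 69.1% of all probes, with median differences of 0.80 and -0.83. These 2 arrays are part of the comparison itself. The difference was 2.88 for PigEx0008616, 2.66 for PigEx0008618, 2.76 for PigEx0049320 and 3.24 for PigEx0000412. It was -4.72 for PigEx0017657, -4.29 for PigEx0017656, -2.61 for PigEx0010604 and -2.62 for PigEx0010605.

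Scan 2 held 3 control arrays of each time point. Within it all 994 rising and 1292 of 1292 falling probes with values had the direction of the call, against 76.6% of all probes, with median changes of 0.91 and -0.83. These 6 arrays are among the 12 on which the probes were called, so this agreement follows in part from that choice. A fit of the scan 2 arrays alone called 2535 probes in controls, of which 842 were among the 2287 of the full fit. In the fit of that scan alone, PigEx0008616 changed by 2.97 (adjusted p = 0.103) and PigEx0008618 by 2.77 (0.108). PigEx0049320 changed by 2.2 (0.155) and PigEx0010605 by -2.20 (0.0678). The calls of these probes were thus lost there, for a reason that was not tested. With slide as a block, 544 of the rising (54.7%) and 791 of the falling probes (61.2%) were called again. PigEx0017657 then changed by -4.00 (adjusted p = 0.00816) and PigEx0008616 by 3.82 (adjusted p = 0.00288).

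Over all probes, the spread within control groups was smaller at T2 than at T3, a difference that was not tested. The 3 NK arrays of T3 came from 3 scans. Within groups, the SD of a probe had a median of 0.28 in NK and 0.23 in UK pigs at T2 and 0.51 in NK and 0.35 in UK pigs at T3. Single probes could go the other way, such as PigEx0008616 and PigEx0017657, which varied more at T2. The fit of all 30 arrays, which also holds the less variable T1 and T2 groups, called 2287 probes, and a fit of only the 12 control arrays called 1324. The share of probes well above background was 55.0% on NK_T3 replicate 1, the only array of scan 3 among the controls, and 62.1% to 68.7% on the other 11 control arrays. Without that array the count over both birth weights stayed within 1.5 times the full count, and the NK count fell to 1.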

How the data were processed

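Liver RNA was labelled with Cy3 and hybridised to 1-colour Agilent arrays, per the labels. The deposited scanner files come from Agilent's Feature Extraction 10.5.1.1 and their processed signal, per the file headers, is an intensity, not normalized between arrays. The table the authors deposited also holds intensities, for 19864 protein identifiers, and served only to tie 19206 identifiers to probe runs. Each array's 75th percentile was subtracted from its log2 processed signals, without outlier spots. A probe was tested if well above background on all 3 arrays of a group (41061 probes).

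All 30 arrays entered 1 limma 3.58.1 fit (R 4.3.3) with a mean per group, so all groups share an estimate of the spread. The T3 groups varied more than the others, which makes calls that involve T3 lenient. Birth weights were averaged with equal weight. P-values were two-sided and Benjamini-Hochberg adjusted over all probes. The fit was tested on simulated data. The number of arrays limits precision. Matching and plots used Python 3.11.15.

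The probe naming rule, lists and tests were chosen with earlier results of these data known. Gene lists and cell type markers had been chosen too, but no source used here pairs these probes or identifiers with genes, so none was applied. Alternatives were quantile normalization, normexp (offset 50), other filters, slide, scan and replicate blocks, smaller fits, and leaving out arrays.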

Additional observations from a re-analysis of the deposited data

How the results depend on the processing

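The counts of called probes moved by more than 1.5 times in these settings, and the cause was not tested. The counts per protein identifier are out of 12850 identifiers instead of 41061 probes, so they are not on the same scale. For controls the share called was 6.31% of identifiers against 5.57% of probes. For controls over both birth weights (2287 called) the count was 3983 with the slide block, 5183 with the scan block, 1324 when only the groups compared were fitted and 811 with the median per protein identifier. For NK pigs (204) it was 129 with quantile normalization, 29 with no filter, 30 with slide as a block, 130 with slide as a random block, 414 with scan as a block, 18 with only the groups compared, 345 with only scan 2 and 94 per identifier. For UK pigs (225) it was 107 with no filter, 2499, 863 and 3195 with the slide, random slide and scan blocks, 39 with only the groups compared, 92 with scan 2 and 91 per identifier. For restricted pigs (403) it was 204, 1269, 721, 2891, 70, 209 and 169 in the same order, and 28.6% of the 70 were higher at T3 against 39.7% of the 403. The difference between birth weights had 15 calls and that between restricted and control pigs 9 calls with only scan 2, and neither had any in the other settings that keep all arrays.

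Leaving out 1 array at a time gave 1054 to 2724 calls for controls, 1 to 576 for NK, 7 to 309 for UK, 121 to 557 for restricted pigs, 0 to 1 for the difference between birth weights (1 without NK_T3 replicate 3) and 0 to 0 for the difference from restricted pigs. The scan 2 fit, the medians per identifier and leaving out restricted arrays, for single probes as well, were chosen after seeing the data.

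Equal replicate numbers did not pair T2 with T3 control pigs: deviations from the group means correlated at -0.143, -0.154 and -0.232 in NK and 0.003, -0.004 and 0.001 in UK pigs. Within T2, NK and UK pigs of equal number did deviate together (0.264, 0.118 and 0.242), so the 6 T2 controls may not be independent. At T3 the values were 0.044, 0.196 and 0.662. With the replicate block, 2963 probes were called in controls, 2278 of them among the 2287, and the counts for NK, UK and restricted pigs were 276, 285 and 571. No direction of a named probe reversed in any of its alternatives. Normexp shifted the median change of all probes by 0.18 in NK pigs and no filter by 0.17. For the difference between birth weights the shifts were -0.20 and -0.12, and for that between restricted and control pigs normexp gave -0.14.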
